A study of Mus musculus with 3 samples.

Results

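The circadian clock genes described here are 10 genes of the core clock and its direct output: *Clock*, *Arntl*, *Per1*, *Per2*, *Per3*, *Cry1*, *Cry2*, *Nr1d1*, *Nr1d2* and *Dbp*. They were chosen by name, and each had exactly 1 row among the 39179 genes of the deposited count table. The mice were C57BL/6 animals aged 16 weeks with a Flag-FTO transgene, and their white fat was taken after an overnight fast. FTO, the fat mass and obesity-associated protein, is a demethylase that acts on methylated adenosines of RNA. An anti-Flag M2 monoclonal antibody pulled the tagged protein and its attached RNA out of the lysate in 2 libraries (Flag-IP 1 and Flag-IP 2), and nonspecific IgG was used on the same kind of lysate in 1 library (IgG-IP). All 3 libraries are from transgenic mice. The labels used here give neither the promoter of the transgene, the number of animals, whether libraries came from separate animals, nor the time of day of collection. The only spread behind the p-values is therefore that between the Flag-IP libraries, which may be technical. It was pooled across genes and is not each gene's own spread.

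The mammalian clock is a feedback loop of transcription. CLOCK and BMAL1, the product of *Arntl*, pair up and switch on genes that carry E-box elements, among them the *Per* and *Cry* genes. PER and CRY proteins accumulate, enter the nucleus and shut their own activators off. A second loop runs through the nuclear receptors REV-ERBα and REV-ERBβ, the products of *Nr1d1* and *Nr1d2*, which repress *Arntl*. *Dbp* encodes a transcription factor that carries the rhythm to output genes through D-box elements. Clock transcripts cycle over the day in adipose tissue, where the clock is known to time lipid release and storage.

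None of the clock transcripts differed between Flag-IP and IgG-IP beyond the test's threshold. Of the 9 members that could be tested, *Per2*, *Per1* and *Dbp* had the highest estimates, with folds of 2.00, 2.05 and 2.04 over IgG-IP, and *Clock* had the lowest, but the errors were wide and the sign of *Dbp* rests on 1 library. *Cry1*, the most highly counted member, was nearly level in all libraries. Of the 9 members that passed the filter on low counts, 0 were higher and 0 were lower by edgeR's quasi-likelihood test with Benjamini-Hochberg adjustment over all genes tested, at a threshold of 0.05. Among all 17587 genes tested, 5.58% were higher and 5.77% were lower. At an unadjusted p under 0.05 there were 2 of 9 members, *Per2* and *Clock*, against 24.7% of all genes tested. DESeq2 gave an adjusted p for 1 member, *Cry1*, which did not pass where 6.88% of the genes with an adjusted p were higher and 7.62% were lower, and 0 of the 9 had an unadjusted p under 0.05 there. A missed threshold does not show that the levels were alike, so the intervals below say how large a difference each gene's counts leave possible.

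The libraries held between 74176962 and 98227791 counts, but 28 genes took from 97.0% to 97.6% of them. The median count of a tested gene was 24 and 26 in Flag-IP and 25 in IgG-IP. A normalized count below is the count scaled by the library's effective size (TMM factors 0.840 and 0.936 for Flag-IP 1 and 2, and 1.27 for IgG-IP). Scaled to total counts in place of these factors, all log2 fold changes moved by a median of -0.52, and the split of called genes went to 342 higher and 3008 lower, against 981 and 1015 in the fit reported here. Of 12 white adipocyte markers, 10 had a mean of at least 10 counts. *Adipoq*, the gene for adiponectin and a defining marker of fat cells, had only 18 and 14 counts in Flag-IP and 3 in IgG-IP. The markers of white adipocytes summed to 5886 and 4024 normalized counts in Flag-IP and 3176 in IgG-IP, most of them from *Lpl* and *Aqp7*. The list did not move as one: 3 of its members were higher, led by *Aqp7* (log2 3.32), *Cd36* was lower (log2 -0.89, edgeR adjusted p = 0.0183), and *Lpl* (0.08), *Pparg* (-0.55) and *Cidec* (-0.40) did not pass. Macrophage markers (3 of 5 with a mean of at least 10 counts) summed to 199 and 161 in Flag-IP and 246 in IgG-IP. Endothelial markers (4 of 4) summed to 309 and 357 against 320.3, and fibroblast markers (4 of 4) to 219 and 187 against 164. Skeletal muscle markers (3 of 4) summed to 106 and 58.4 against 36.7, and of these *Ckm* was higher (log2 2.49, edgeR adjusted p = 0.0334). Neuron markers (3 of 3) summed to 686 and 804 in Flag-IP and 712 in IgG-IP. These sums were above those of macrophage, endothelial, fibroblast and skeletal muscle markers and below those of white adipocyte markers. Most of the neuron counts came from *Syt1* and *Rbfox3*, which span 513 and 422 kb, and counts followed gene span, as described below. *Rbfox3* was higher (log2 1.01, edgeR adjusted p = 0.000584) and *Syt1* lower (log2 -0.63, edgeR adjusted p = 0.0366). The part of cell makeup in the clock values was not tested, and fewer cells of a type and less RNA per cell cannot be told apart in such samples. *Fto* itself, the gene of the tagged protein, had 230 and 291 counts in Flag-IP and 300 in IgG-IP, which does not check the labels because every library is transgenic.

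FTO acts on N6-methyladenosine, which is often found in RNA within the motif GGACU, written GGACT in DNA letters. This motif was counted on the transcript strand in the longest annotated transcript of each clock gene, to show where the enzyme's substrate could occur. *Cry2* held 10 such sites and *Per2* held 11, while *Cry1* held 2, *Clock* held 8 in a much longer transcript and *Dbp* held 0. Windows of 30 bases around the first coding site that lies within a single exon are shown for *Clock* and *Per2*, the members with the smallest p-values, and for both cryptochromes. The sequences are from GENCODE M21 transcripts (GRCm38), 5′ to 3′ on the transcript strand, with the motif in capitals.
Clock: tgagattcgacaGGACTggaaacccacatt
Per2: gaatggatacgtGGACTtctccccaagtcc
Cry1: tggttccgaaagGGACTccggctccacgac
Cry2: tggttccgcaaaGGACTacggctccacgac
The *Clock* window lies in exon 7 (chr5:76262712-76262741, minus strand) and the *Per2* window in exon 2 (chr1:91450794-91450823, minus strand). The *Cry1* window (chr10:85184421-85184450, minus strand) and the *Cry2* window (chr2:92433919-92433948, minus strand) are both in exon 1. The cryptochrome windows are identical at 27 of 30 bases, and both keep the motif. The presence of the letters is not a measured methylation site. Per kilobase of transcript, *Cry2* had 2.52 sites, *Per2* 1.89, *Clock* 0.82 and *Cry1* 0.66, against a median of 1.03 over 14920 tested protein-coding genes. Across the 9 tested clock genes, Spearman's rho between motif density and the log2 fold change was 0.25, a description over genes that share libraries. For the 9084 protein-coding genes that averaged 20 counts or more, a limit that *Per1* and *Dbp* do not meet, rho was 0.17.

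**Figure D1:**
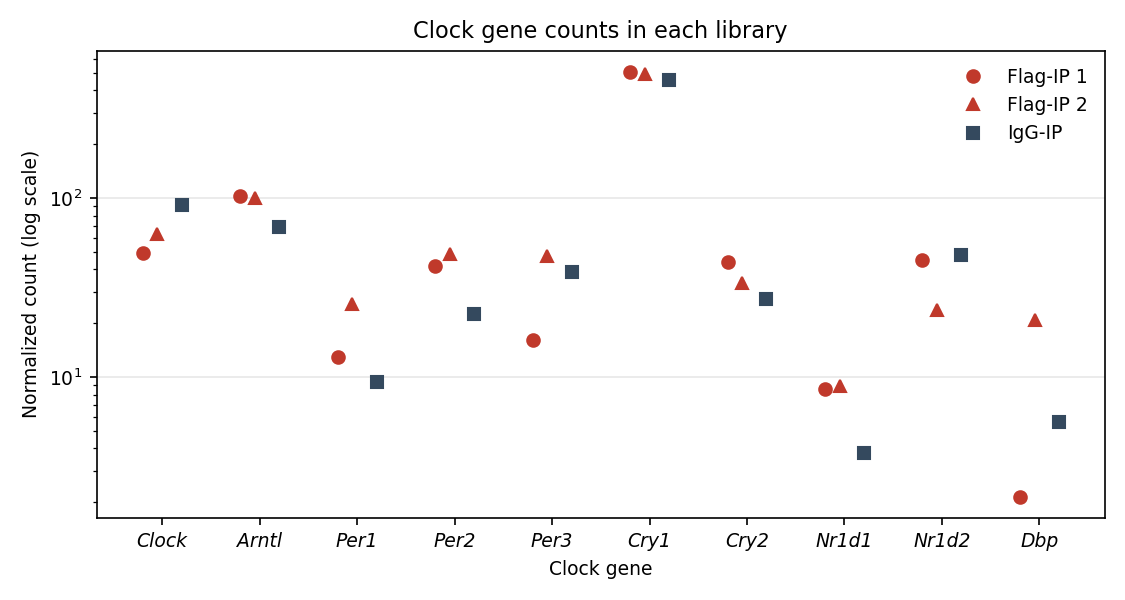
Normalized counts (y axis, log scale) of the 10 clock genes (x axis) in each library, with red circles and triangles for Flag-IP 1 and Flag-IP 2 and dark squares for IgG-IP. *Cry1* sits near 500 in all libraries, *Clock* lies lower in both Flag-IP libraries than in IgG-IP, *Arntl* and *Per2* lie higher, and the Flag-IP points of *Dbp* and *Per3* stand on opposite sides of IgG-IP.

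The estimates of the activator pair had opposite signs, but neither gene passed the threshold and the difference between them was not tested. *Clock*, which encodes the larger partner of the E-box-binding pair (GRCm38, chromosome 5, 76209868 to 76304792), had 46 and 64 counts in Flag-IP and 97 in IgG-IP. Normalized, it averaged 56.5 ± 9.79 in Flag-IP (SD, n = 2) and stood at 91.4 in IgG-IP. Both Flag-IP libraries lay below IgG-IP. The log2 fold change was -0.69 ± 0.32 (SE), a fold of 0.620 with a 95% interval of 0.402 to 0.956, and the edgeR adjusted p was 0.149. With a smooth trend on transcript GC content taken out of each library, called the GC trend below, the log2 value was -0.14. Scaled to total counts, *Clock* was the 1 member called lower (log2 -1.20, edgeR adjusted p = 0.00663), under a scaling that moved all genes by a median of -0.52 and called 17.1% of them lower.

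*Arntl*, the gene of BMAL1 (chromosome 7, 113207465 to 113314126), had 95 and 101 counts in Flag-IP and 73 in IgG-IP. Its Flag-IP libraries nearly coincided after normalization, at 102 and 100.02 against 68.8 in IgG-IP. This gave a log2 value of 0.56 ± 0.30 (SE; edgeR adjusted p = 0.245) and an interval from 0.972-fold to 2.22-fold. With the GC trend removed it was 0.59, so it moved little under that correction. The counting intervals of the ratio to IgG-IP, which cover counting error only, were 1.09 to 2.05 for Flag-IP 1 and 1.07 to 1.99 for Flag-IP 2. The spread shared between genes is wider than counting error, and the edgeR interval includes no change.

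The *Per* genes, whose products form the negative limb with CRY, did not move as a block. *Per2* (chromosome 1, 91415982 to 91459324) had 39 and 49 counts in Flag-IP and 24 in IgG-IP. Both Flag-IP libraries were above IgG-IP, at 45.3 ± 4.61 normalized counts (SD, n = 2) against 22.6. The estimate was 1.00 ± 0.45 on the log2 scale (SE), or 1.09-fold to 3.67-fold by its interval, and the edgeR adjusted p was 0.134, the smallest among the clock genes. With the GC trend removed it was 0.48.

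*Per1*, the family member that responds quickly to hormonal and light cues (chromosome 11, 69095217 to 69109960), had 12 and 26 counts in Flag-IP and 10 in IgG-IP. Both Flag-IP libraries were above IgG-IP, Flag-IP 1 by less than its counting error. Its log2 fold change was 1.04 ± 0.71 (SE; edgeR adjusted p = 0.381), and 0.26 with the GC trend removed. The interval ran from 0.782-fold to 5.37-fold, so neither a small decrease nor a large increase could be told from no change at this depth.

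*Per3*, regarded as the least essential of the *Per* genes for the rhythm itself (chromosome 4, 151003652 to 151044665), had 15 and 48 counts in Flag-IP and 41 in IgG-IP. The Flag-IP libraries disagreed: Flag-IP 1 had 0.340 times the normalized count of Flag-IP 2, with a counting interval of 0.177 to 0.617. The log2 fold change of -0.26 ± 0.43 (SE; edgeR adjusted p = 0.759) was -1.25 without Flag-IP 2 and 0.30 without Flag-IP 1, so 1 library decides its direction. *Per3* lies within the span of *Camta1*, a gene on the same strand with 925 and 1056 counts in Flag-IP and 812 in IgG-IP, and although they share no exonic bases, no source used here says how reads in the shared span were assigned.

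The cryptochromes are the strongest repressors of the CLOCK and BMAL1 pair. *Cry1* (chromosome 10, 85131700 to 85185064) had 471 and 497 counts in Flag-IP and 487 in IgG-IP. Its normalized counts were 499.7 ± 10.6 in Flag-IP (SD, n = 2) and 459 in IgG-IP, so the libraries were nearly level. A log2 fold change of 0.12 ± 0.22 resulted (SE; edgeR adjusted p = 0.780), and the interval, the narrowest of the 9, ran from 0.807-fold to 1.47-fold. The sign is not fixed by the data: the log2 value was -0.15 with the GC trend removed and -0.40 scaled to total counts.

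*Cry2* (chromosome 2, 92403646 to 92434043) had 41 and 34 counts in Flag-IP and 29 in IgG-IP. Both Flag-IP libraries were above IgG-IP in normalized counts, at 44.2 and 33.7 against 27.3. The log2 fold change was 0.51 ± 0.45 (SE; edgeR adjusted p = 0.524), -0.10 with the GC trend removed and -0.02 scaled to total counts. A noncoding gene on the opposite strand, D930015M05Rik, shares 295 exonic bases with *Cry2* and had 24 and 20 counts in Flag-IP and 13 in IgG-IP. No source used here gives the strand setting of the counting, so reads of these genes cannot be told apart.

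Of the receptors of the second loop, *Nr1d1* was weakly counted and *Nr1d2* was not. *Nr1d2* (chromosome 14, 18204054 to 18239127) had 42 and 24 counts in Flag-IP and 51 in IgG-IP. Both Flag-IP libraries were below IgG-IP, but Flag-IP 1 was near it, at 45.2 normalized counts against 48.0, while Flag-IP 2 stood at 23.8. In log2 terms the estimate was -0.49 ± 0.40 (SE; edgeR adjusted p = 0.489), -1.01 without Flag-IP 1 and -0.08 without Flag-IP 2. With the GC trend removed it was 0.01.

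*Nr1d1* (chromosome 11, 98767932 to 98775333), normally among the most strongly cycling transcripts of peripheral tissues, had only 8 and 9 counts in Flag-IP and 4 in IgG-IP, and did not pass the filter on low counts. Tested without the filter its log2 fold change was 1.14 ± 1.09 (SE; edgeR adjusted p = 0.727). The ratios to IgG-IP were 2.29 for Flag-IP 1 (counting interval 0.613 to 10.4) and 2.37 for Flag-IP 2 (0.660 to 10.5). No difference was detectable at this depth. *Nr1d1* shares 263 exonic bases with *Thra*, the thyroid hormone receptor gene on the opposite strand, which had 36 and 42 counts in Flag-IP and 27 in IgG-IP.

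*Dbp*, the output factor (chromosome 7, 45705088 to 45710203), had 2 and 21 counts in Flag-IP and 6 in IgG-IP. IgG-IP fell between the Flag-IP libraries, and Flag-IP 1 had 0.104 times the normalized count of Flag-IP 2, with a counting interval of 0.0118 to 0.424. The log2 fold change was 1.03 ± 1.04 (SE; edgeR adjusted p = 0.585). Without Flag-IP 2 it was -1.34 and without Flag-IP 1 it was 1.86, so its positive sign rests on Flag-IP 2. *Dbp* shares 539 exonic bases with *Sphk2*, a sphingosine kinase gene on the opposite strand that had 12 and 13 counts in Flag-IP and 6 in IgG-IP.

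**Figure D2:**
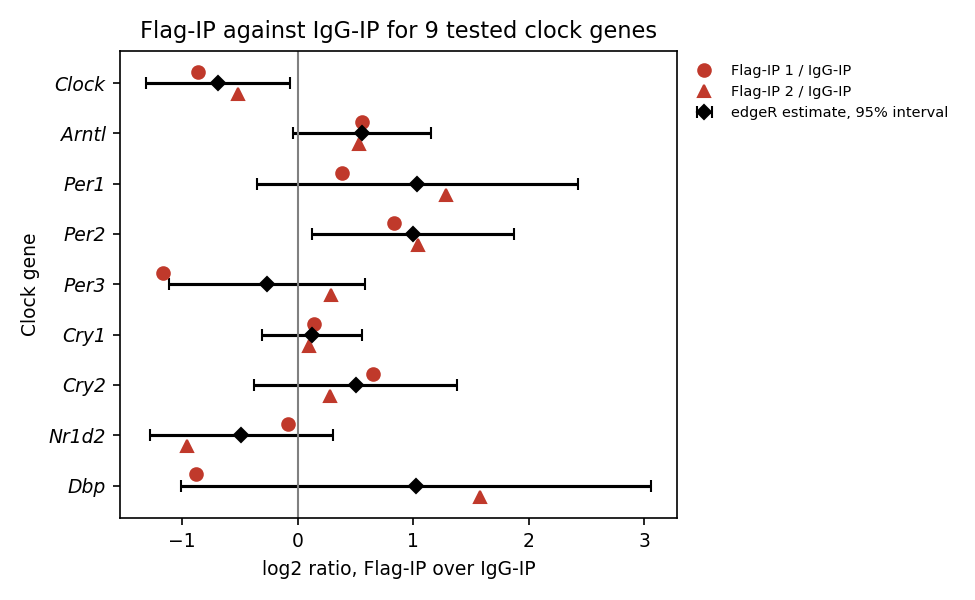
Log2 ratio of Flag-IP over IgG-IP (x axis) for the 9 tested clock genes (y axis). Black diamonds with bars are the edgeR estimate and its 95% interval, red circles and triangles are the ratios of Flag-IP 1 and Flag-IP 2 alone, computed with a prior count of 2. The intervals of *Clock* and *Per2* exclude 0 before adjustment, and the interval of *Dbp* runs from -1.01 to 3.06.

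As a group the clock genes were split. In normalized counts, 5 of the 9 tested members had both Flag-IP libraries above IgG-IP, against 40.5% of all tested genes, and 2 had both below, against 39% of all tested genes. The other 2 of the 9, *Per3* and *Dbp*, had the Flag-IP libraries on opposite sides, against 20.5% of all tested genes. The median log2 fold change was 0.51 over the 9 tested members and 0.03 over all tested genes. Without the filter on low counts, the median over all 10 members was 0.47. The median over the 9 tested members was 0.0086 with the GC trend removed, 0.30 without Flag-IP 1 and 0.15 without Flag-IP 2. Its size is therefore not stable. Scaled to total counts it was -0.017, under a scaling that moved all tested genes by a median of -0.52, so its sign depends on the scaling.

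The log2 fold changes of the clock genes were higher where the transcript held more G and C, as they were over protein-coding genes at large. The members with the lowest transcript GC content were *Clock* (40.9%) and *Nr1d2* (41.8%), which lay below IgG-IP in both Flag-IP libraries. The members with the highest were *Dbp* (61.6%) and *Per1* (59.4%), whose log2 fold changes were above 1. *Cry2* (55.6%), *Per2* (54.3%), *Per3* (52.4%), *Cry1* (51.6%) and *Arntl* (48.2%) lay between. Spearman's rho between GC content and the log2 fold change was 0.83 across the 9 tested members and 0.64 across those 9084 protein-coding genes. These are descriptions across genes of the same 3 libraries and not replicates. With a trend on GC content removed, *Clock* was at -0.14, *Per1* at 0.26, *Dbp* at 0.22 and *Nr1d2* at 0.01 on the log2 scale, each nearer to 0 than before, while *Arntl* (0.59) and *Per3* (-0.61) were not, and *Cry1* changed sign and was slightly farther from 0 (-0.15 against 0.12).

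**Figure D3:**
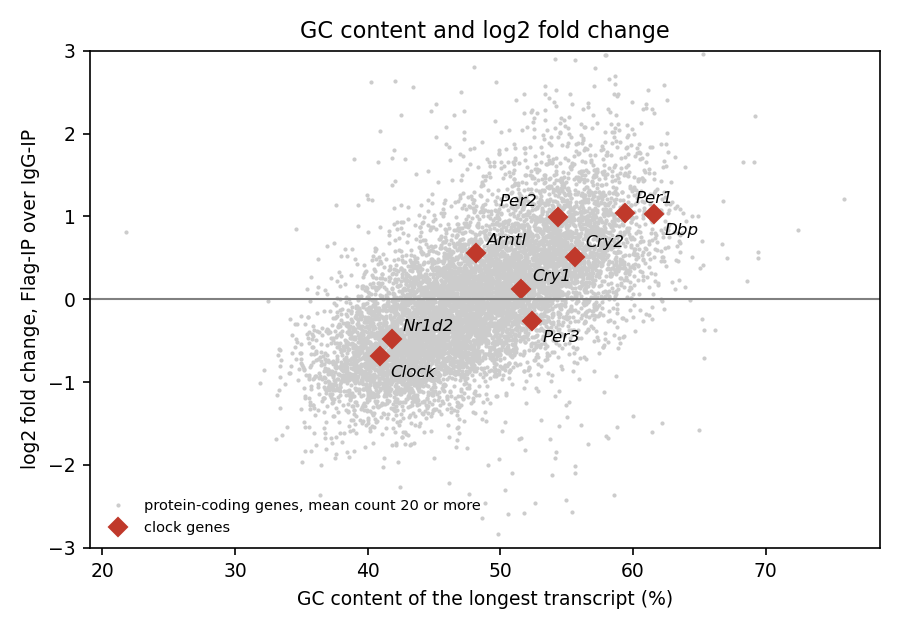
GC content of the longest transcript (x axis, %) against the log2 fold change of Flag-IP over IgG-IP (y axis), with red diamonds for the 9 tested clock genes and grey points for the 9084 protein-coding genes that averaged 20 counts or more, 22 of which lie outside the frame. *Clock* and *Nr1d2* sit at the low end of both axes and *Per1* and *Dbp* at the high end, along the slope of the grey points.

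The levels of the clock genes followed the length of the gene on the chromosome. Mean normalized counts over the 3 libraries, divided by gene span from first to last annotated base, lay between 0.717 (*Clock*) and 1.86 (*Dbp*) per kilobase in 9 of the 10 clock genes, although the spans of these genes differ 20.8-fold. The median over tested protein-coding genes was 0.852, and the range from the 10th to the 90th percentile was 0.582 to 1.55. Among markers of neurons, *Snap25* (0.667 per kilobase of span) and *Syt1* (0.671) lay just below the lowest clock gene, and *Rbfox3* (0.814) lay within the clock range. White adipocyte markers ran from 0.846 (*Pparg*) to 96.9 (*Lpl*), with *Adipoq* at 1.05. Spearman's rho between mean count and span was 0.89 over the 10 clock genes and 0.87 over 14920 protein-coding genes. With exonic length in place of span it was 0.41 and 0.50. These too describe genes of the same libraries. The counts carry no position within a gene, so they do not say how many reads lay in exons and how many in introns.

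As means over the 3 libraries, *Dbp* lay above that percentile range, and *Cry1* was far outside it. The *Dbp* mean rests on Flag-IP 2, with 20.8 normalized counts against 2.15 in Flag-IP 1 and 5.65 in IgG-IP. *Cry1* had 9.11 normalized counts per kilobase of span, more than 98.5% of tested protein-coding genes, and no other annotated gene overlaps it. Its share of the summed normalized counts of the clock genes was 61.1% and 56.9% in Flag-IP and 59.2% in IgG-IP. Its high level was seen with both antibodies.

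**Figure D4:**
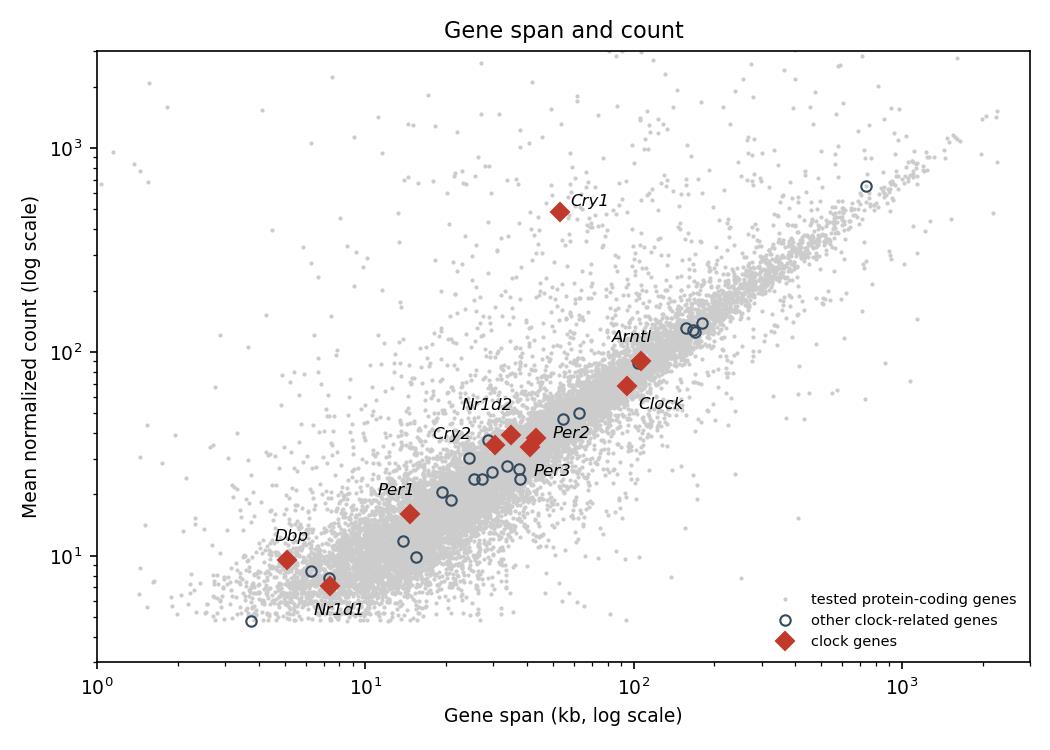
Gene span (x axis, kb, log scale) against the mean normalized count over the 3 libraries (y axis, log scale), with red diamonds for the 10 clock genes, open circles for 23 other clock-related genes and grey points for tested protein-coding genes, of which 78 lie outside the frame. Of the clock genes, 8 lie in the main band of the grey points, *Dbp* lies at its upper edge, and *Cry1* stands far above it.

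Divided by exonic length, which gives a transcript level only as far as the reads came from exons, the order was *Cry1* (146 normalized counts per kilobase), *Arntl* (12.01), *Nr1d2* (7.21), *Per2* (6.44), *Cry2* (5.55), *Clock* (4.96), *Per3* (3.55), *Dbp* (3.19), *Per1* (2.85) and *Nr1d1* (2.31), as means over the 3 libraries. Since counts followed span more closely than exonic length, this order need not be an order of transcript levels. *Cry1* stood apart from *Arntl*, with a lowest library of 137 against a highest of 13.6. *Arntl* stood just above *Nr1d2*, with a lowest library of 9.14 against a highest of 8.88. The other 7 neighbouring pairs overlapped in their ranges, so neighbours below *Arntl* are not resolved, although *Nr1d2*, *Per2*, *Cry2* and *Clock* each had a lowest library above the highest of *Nr1d1* (2.90). The 1319 vomeronasal and olfactory receptor genes were chosen by family after the values were seen, and whether each is silent in fat was not tested. Of them, 103 averaged 10 counts or more and 325 had 0 counts in all libraries. Per exonic kilobase these receptor genes had a median of 0.270 and a 95th percentile of 2.94, which *Per1* and *Nr1d1* did not exceed. Per kilobase of span their 95th percentile was 0.902, which *Clock* (0.717), *Per3* (0.831), *Arntl* (0.847) and *Per2* (0.870) did not exceed while *Per1* (1.09) and *Nr1d1* (0.959) did. Which clock genes stand above these receptor genes thus depends on the scale, apart from *Cry1*, *Cry2*, *Nr1d2* and *Dbp*. These exceed both percentiles as means over the 3 libraries, but *Dbp* does so per exonic kilobase only through Flag-IP 2. It had 6.95 there, against 0.72 in Flag-IP 1 and 1.89 in IgG-IP.

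Around the core loop, 23 further clock-related genes were examined, of which 21 passed the filter. Of these 0 were higher, 1 was lower (*Rorb*) and 20 did not pass edgeR's threshold. Over all tested genes 5.58% were higher and 5.77% were lower, or 11.3% in either direction. With 1 call among 21 genes, no difference in share from all genes is claimed. *Rorb*, a nuclear receptor that can activate *Arntl* and is known mainly from the nervous system (chromosome 19, 18930605 to 19111196), had 101 and 108 counts in Flag-IP and 212 in IgG-IP. Both Flag-IP libraries were close to each other and well below IgG-IP. Its log2 fold change was -0.89 ± 0.25 (SE; edgeR adjusted p = 0.00730), but the call was lost with the GC trend removed (log2 -0.38, edgeR adjusted p = 0.512), with DESeq2 (log2 -0.90, adjusted p = 0.174) and with edgeR's likelihood ratio test (log2 -0.89, adjusted p = 0.0833). Of these 3 fits, the estimate was smaller with the GC trend removed and about as large in the other 2. Its transcript GC content is 41.6%, near that of *Clock*.

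*Rora*, the relative of *Rorb* that is widely expressed and opposes REV-ERB at the *Arntl* promoter, had 628 and 715 counts in Flag-IP and 614 in IgG-IP, a log2 fold change of 0.26 ± 0.22 (SE; edgeR adjusted p = 0.506). With the GC trend removed *Rora* was higher (log2 0.81, edgeR adjusted p = 0.00919), where 2.33% of all tested genes were higher, and it was the only gene of either clock list to pass upward under any setting run. *Npas2*, which can stand in for *Clock*, had 118 and 131 counts in Flag-IP and 127 in IgG-IP, so unlike *Clock* it was nearly level, although the difference between these genes was not tested.

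Among the remaining groups, *Hlf*, a D-box factor related to *Dbp*, had 49 and 49 counts in Flag-IP and 41 in IgG-IP. *Bhlhe40*, an E-box repressor, had 8 and 11 against 6. *Gsk3b*, a kinase that phosphorylates clock proteins, had 135 and 80 against 179 (log2 -0.59 ± 0.25, SE), and *Sirt1*, a deacetylase tied to the clock through NAD, had 45 and 57 against 49. None of these 4 passed the edgeR threshold, and their adjusted p-values were 0.575, 0.733, 0.114 and 0.805. *Bhlhe41* and *Ciart*, both E-box repressors, were too weakly counted to test. Over the 21 tested genes the median log2 fold change was 0.12, and 14 of the 21 were above 0.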

How the data were processed

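RNA immunoprecipitated from white fat was sequenced in 2 Flag-IP libraries and 1 IgG-IP library. The authors deposited raw counts per Ensembl gene, unnormalized whole numbers in 1 column per library, and the sample numbers in the labels say which column is which. Per the submitters' processing notes CASAVA 1.7, Bowtie 0.12.2 and build mm8 were used; no source used here names the counting program, its annotation or its strand setting. The deposited lipid list holds no clock gene and was not used here.

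Positions, spans, exonic lengths and transcript sequences came from GENCODE M21 (GRCm38), matched by Ensembl identifier (37607 of 39179); none are in mm8. Noct and Ciart were matched under their older symbols in the table. Genes were kept by filterByExpr (minimum count 10; 17587 kept). Testing used the quasi-likelihood method of edgeR (version 4.0.16 in R 4.3.3, with TMM factors and a prior count of 0.125). Benjamini-Hochberg adjustment was over all genes kept. The fit was checked on simulated data in which all genes shared the same dispersion and IgG-IP varied like Flag-IP. Such a check cannot give the error rates in these data. The fit of the data has 1 residual degree of freedom, and the prior degrees of freedom were infinite for all genes. Each error therefore uses a spread shared across genes, and the lone IgG-IP library is assumed to vary likewise. The common biological coefficient of variation was 0.189, but the errors do not follow this value alone. The SE was 0.22 for Cry1, 0.25 for Rorb and 1.04 for Dbp. In the likelihood ratio test at the common dispersion it was 0.35, 0.36 and 0.70. The standard error is the log2 fold change divided by the square root of F. Counting intervals are exact 95% Clopper-Pearson intervals. The GC trend was a lowess curve (span 0.3) per library, removed as an offset.

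The members and lists were chosen with earlier results of these data known. Named genes are all 10 members, genes that overlap them and have counts, clock-related genes past the threshold, the most counted gene of each role and Fto; genes named as markers come from fixed marker lists. Other settings were scaling by RLE, by upper quartiles or by total counts, no filter on low counts, DESeq2 1.42.0, genes averaging 20 counts or more, edgeR's likelihood ratio test at the common dispersion, a prior count of 2, a GC trend, and leaving out each Flag-IP library; a GC trend of protein-coding genes only was added after seeing the data.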

Additional observations from a re-analysis of the deposited data

How the results depend on the processing

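The count of clock genes past the threshold was 0 in each direction under all settings that give a test, except for 1 lower (Clock) with total-count scaling. Leaving out a Flag-IP library leaves 1 library against 1 and no residual degrees of freedom, so it gives values and no test. The median log2 fold change of the clock genes was -0.017 with total-count scaling, 0.16 over genes averaging 20 counts or more (which drops Per1 and Dbp), 0.0086 with the GC trend removed, 0.0095 with the trend of protein-coding genes, and from 0.15 to 0.30 with a Flag-IP library left out. Signs turned for Cry1 (-0.40 with total-count scaling, -0.15 and -0.14 with the 2 GC trends), Cry2 (-0.017, -0.10 and -0.10) and Nr1d2 (0.0086 and 0.0095 with the GC trends). With a library left out, Per3 ranged from -1.25 to 0.30 and Dbp from -1.34 to 1.86. Of the other clock-related genes, 3 were lower with total-count scaling (Rorb, Gsk3b and Btrc), 1 was higher with each GC trend (Rora), and 0 were lower with either GC trend, the likelihood ratio test or DESeq2. Over all genes, the numbers higher and lower were 342 and 3008 with total-count scaling, 405 and 349 with the GC trend removed, 272 and 326 with the trend of protein-coding genes, and 131 and 145 with DESeq2, where 15684 of 17587 genes had no adjusted p. Apart from scaling, which moved all genes, and the filters, which changed the genes tested, the cause was not tested. Counts were lowest for Nr1d1, Dbp and Per1. For Dbp the Flag-IP libraries also differed by more than counting error (ratio 0.104, counting interval 0.0118 to 0.424). No paired analysis was possible because the IgG-IP group holds 1 library and shares fewer than 2 replicate numbers with Flag-IP.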
